A study of Arabidopsis thaliana with 4 samples.

Results

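Leaf mRNA of the *suvr5-1* mutant was set against leaf mRNA of wild-type Col-0, with 1 library of each, which are 2 of the 4 mRNA-Seq libraries of the series. The other libraries, from the *suvr5 ldl1 ldl2* triple mutant and the *ldl1 ldl2* double mutant, are given beside them. *suvr5-1* is a T-DNA insertion line of *SUVR5*, *ldl1 ldl2* combines the *ldl1-2* allele with a mutant allele of *LDL2*, and the triple mutant carries all of these alleles. Plants were grown in long days, and the leaves were taken at 3 weeks of age. Genes were compared where the deposited read positions fit the TAIR10.1 annotation, which held for 17153 of 37899 annotated genes, and 11897 of these had a read in *suvr5-1* or Col-0.

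SUVR5 belongs to the SET-domain proteins related to histone H3 lysine 9 methyltransferases and carries zinc fingers that bind DNA. Methylation of this lysine goes with silent chromatin in plants. LDL1 and LDL2 remove methyl groups from histone H3 lysine 4, a mark of active genes. The groups of genes that were lowered in *suvr5-1* are described before those that were raised.

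The libraries held 15083462 mapped reads in *suvr5-1*, against 11722242 in Col-0, of which 4615737 in *suvr5-1* and 2955429 in Col-0 lay on the exons analysed. Levels are RPKM, the reads per kb of exon scaled to the reads on all genes of a library. Raised and lowered genes differed by more than 4-fold in RPKM, with Fisher's exact test (two-sided, Benjamini-Hochberg adjusted) giving a P below 0.01. The P-values describe a pair of libraries and not the genotypes, since neither has a replicate. Intervals are exact 95% intervals of the log2 ratio unless a ratio is named, and they cover counting error only. Where a library had no read of a gene, 3 reads were put in its place, which for 1 kb of exon is 0.650 RPKM in *suvr5-1* and 1.02 RPKM in Col-0. *SUVR5* (AT2G23740) lies outside the part of the genome that could be compared, so the label of the mutant library could not be checked on the mutated gene. In whole leaves, fewer cells of a type and less RNA per cell cannot be told apart.

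Of the 11897 genes, 222 (1.87%) were lowered in *suvr5-1* and 308 (2.59%) were raised. Past 2-fold with the same limit on P, 613 (5.15%) were lowered and 704 (5.92%) were raised. Protein-coding genes made up 196 of the lowered genes, and 13 were long noncoding RNAs. The lowered genes had a median of 24.5 Col-0 reads, 48 of them had no read in *suvr5-1*, and 49 had at least 100 reads in Col-0. Their median level was 0.810 RPKM in *suvr5-1*, 3.33 RPKM in the triple mutant, 3.00 RPKM in *ldl1 ldl2* and 6.98 RPKM in Col-0. For the raised genes these medians were 9.57 RPKM in *suvr5-1*, 7.55 RPKM in the triple mutant, 5.22 RPKM in *ldl1 ldl2* and 1.14 RPKM in Col-0. These genes were chosen on *suvr5-1* and Col-0, so the place of the other mutants between them was not tested. Raised genes were 58.1% of all called genes with reads on genes as library size. When every nuclear read entered the library size, 446 genes were raised and 154 lowered, raised genes were 74.3% of the called genes, and the median log2 ratio of all genes moved up by 0.27. With a beta-binomial test that assumes variation between plants (dispersion 0.1), 45 genes were lowered and 34 raised.

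**Figure D1:**
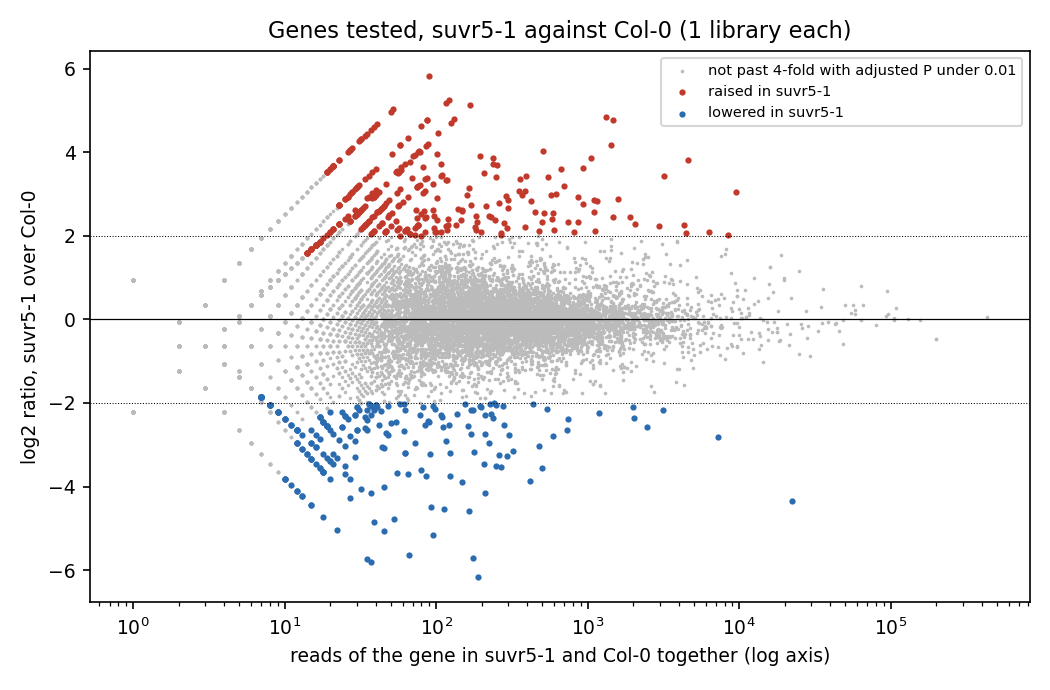
Log2 ratio of *suvr5-1* over Col-0 (vertical) against the reads of the gene in both libraries together (horizontal, log axis), 1 point for each of 11897 genes, with dotted lines at 4-fold. The 308 raised genes (red) and 222 lowered genes (blue) were called on the ratio without any stand-in, so that a few lie inside the dotted lines, and the slanted rows of points at the left are genes with few or no reads in 1 library, for which 3 reads stand in for none.

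The lowest ratio among genes with at least 100 Col-0 reads belonged to AT3G02480, a late embryogenesis abundant (LEA) protein. LEA proteins are small hydrophilic proteins that accumulate in drying seeds and in leaves under drought or cold, and many of their genes respond to abscisic acid (ABA). AT3G02480 had 1.58 RPKM in *suvr5-1*, no read in the triple mutant, 32.3 RPKM in *ldl1 ldl2* and 114 RPKM in Col-0. It had 4 reads in *suvr5-1*, against 185 in Col-0, with a log2 ratio of -6.17 (-8.07 to -4.79) and an adjusted P of 1.52e-67 by Fisher's exact test. Col-0 stood above each mutant library. *LEA4-5* (AT5G06760), another LEA gene, had 2 reads in *suvr5-1*, against 64 in Col-0, a ratio of 0.020 (0.00237 to 0.0753), with 5.18 RPKM in the triple mutant and 3.00 RPKM in *ldl1 ldl2* beside 0.480 RPKM in *suvr5-1* and 24.0 RPKM in Col-0. The other lowered members had few reads. *AtLEA4-1* (AT1G32560) had 2 reads in *suvr5-1*, against 15 in Col-0, a ratio of 0.0854 (0.00947 to 0.367). AT3G03341, annotated as a cold-regulated protein and sharing exon bases with another gene, had 1 read in *suvr5-1*, against 21 in Col-0, a ratio of 0.0305 (0.000737 to 0.190). AT3G17520 had no read in any of the 3 mutants and 18 in Col-0. With 3 reads in place of none it was 9.37-fold lower in *suvr5-1*, and its exact interval starts at 6.87-fold.

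These 5 genes were the lowered ones among 45 LEA, dehydrin and cold-regulated genes tested, of which 2 were raised. The list as a whole did not follow them, since the median log2 ratio of its 30 members with at least 20 reads was 0.13, beside 0.01 for 8989 genes of all kinds with that many reads. The abundant cold-regulated members were near the wild type or above it. *COR47* (AT1G20440) had 5404 reads in *suvr5-1*, against 3380 in Col-0, a log2 ratio of 0.03 (-0.03 to 0.10), and the dehydrin *ERD10* (AT1G20450) had 3233 reads in *suvr5-1*, against 2202 in Col-0 (-0.09, -0.17 to -0.01). *KIN2* (AT5G15970), the member with the most reads, had 7890 reads in *suvr5-1*, against 3098 in Col-0, a log2 ratio of 0.71 (0.65 to 0.77). The 2 raised members were *RCI2B* (AT3G05890), with 15 reads in *suvr5-1*, against none in Col-0, and AT1G08160, with 40 in *suvr5-1*, against 6 in Col-0. Under the beta-binomial test 3 of the 5 stayed lowered, namely AT3G02480, *LEA4-5* and AT3G17520.

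The 5 lowered members of the list of LEA, dehydrin and cold-regulated genes also resembled each other in their promoters, a feature that played no part in their choice. ACGTG is the core of the element through which ABA-responsive bZIP factors act, CACGTG is the G-box, which holds this core on both strands, and CCGAC is the core of the drought and cold response element bound by CBF and DREB factors. In a window from 250 bases before to 50 bases after the annotated start, searched on both strands, all 5 held the ACGTG core, the G-box and the CCGAC core. Among the 40 tested list members that were not lowered, 20 held ACGTG, 7 held CACGTG and 9 held CCGAC. Over all 11897 tested genes, 27.1% held ACGTG, 7.93% held CACGTG and 16.3% held CCGAC. The 250 bases before the start are shown for the 5 genes to let the elements be seen, 5′ to 3′ toward the gene, from the TAIR10.1 genome, with ACGTG and CCGAC in capitals on either strand. They lie at chr3:511970-512219 (plus strand), chr5:2090431-2090680 (minus), chr3:790694-790943 (minus), chr1:11774234-11774483 (plus) and chr3:6000448-6000697 (minus).
AT3G02480: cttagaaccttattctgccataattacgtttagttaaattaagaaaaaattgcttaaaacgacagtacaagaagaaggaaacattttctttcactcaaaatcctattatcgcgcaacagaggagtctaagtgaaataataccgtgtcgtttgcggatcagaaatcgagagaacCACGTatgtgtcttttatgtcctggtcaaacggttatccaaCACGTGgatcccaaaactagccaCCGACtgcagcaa
LEA4-5: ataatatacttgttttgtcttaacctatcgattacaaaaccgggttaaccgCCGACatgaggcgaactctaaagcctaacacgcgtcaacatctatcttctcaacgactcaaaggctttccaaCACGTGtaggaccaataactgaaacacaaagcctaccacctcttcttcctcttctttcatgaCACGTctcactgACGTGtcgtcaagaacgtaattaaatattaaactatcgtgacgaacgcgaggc
AT3G03341: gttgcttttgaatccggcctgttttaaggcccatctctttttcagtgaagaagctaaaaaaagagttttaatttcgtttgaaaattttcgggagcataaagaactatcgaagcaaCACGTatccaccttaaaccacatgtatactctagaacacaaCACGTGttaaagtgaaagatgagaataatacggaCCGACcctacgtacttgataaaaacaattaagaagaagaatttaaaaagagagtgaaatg
AtLEA4-1: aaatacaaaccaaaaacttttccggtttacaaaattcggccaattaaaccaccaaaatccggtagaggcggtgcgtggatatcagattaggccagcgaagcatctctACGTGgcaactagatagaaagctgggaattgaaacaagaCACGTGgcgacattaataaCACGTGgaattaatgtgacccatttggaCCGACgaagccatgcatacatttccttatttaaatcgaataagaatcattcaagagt
AT3G17520: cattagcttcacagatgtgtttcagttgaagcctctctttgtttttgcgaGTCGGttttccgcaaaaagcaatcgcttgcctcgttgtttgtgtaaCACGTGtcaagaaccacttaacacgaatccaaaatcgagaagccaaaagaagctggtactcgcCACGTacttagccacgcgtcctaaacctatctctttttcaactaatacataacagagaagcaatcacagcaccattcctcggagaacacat
The same stretch of 2 abundant members that were not lowered is shown beside them, *KIN2* at chr5:5211469-5211718 (plus) with 1 ACGTG in this stretch and *COR47* at chr1:7086874-7087123 (minus) with no match to either core.
KIN2: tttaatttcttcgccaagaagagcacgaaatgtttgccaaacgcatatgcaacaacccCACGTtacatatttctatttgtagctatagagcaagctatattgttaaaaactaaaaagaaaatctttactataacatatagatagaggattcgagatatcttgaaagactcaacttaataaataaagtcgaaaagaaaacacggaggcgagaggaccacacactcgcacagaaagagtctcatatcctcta
COR47: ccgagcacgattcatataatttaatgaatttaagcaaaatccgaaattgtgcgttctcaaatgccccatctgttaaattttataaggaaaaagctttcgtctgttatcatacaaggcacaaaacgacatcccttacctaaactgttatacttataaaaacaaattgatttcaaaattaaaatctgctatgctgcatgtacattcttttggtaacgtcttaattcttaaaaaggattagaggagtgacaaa
In the longer window that was counted, *KIN2* also held a G-box, which lies past the bases shown, so it is 1 of the 7 members that held CACGTG without being lowered. A match is a description of the letters in this window and not a shown binding site.

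ABA signalling and response genes had 3 lowered members and none raised among 25 tested, and the median log2 ratio of the 21 with at least 20 reads was -0.09, but 0.18 with nuclear reads as library size. With the beta-binomial test 1 member stayed lowered, *HAI2*, and with each position counted once 1 was lowered. *HAI2* (AT1G07430) encodes a protein phosphatase of the clade that holds ABA signalling down and is itself induced by ABA. It had 4.66 RPKM in *suvr5-1*, 13.1 RPKM in the triple mutant, 8.92 RPKM in *ldl1 ldl2* and 45.1 RPKM in Col-0, with 41 reads in *suvr5-1*, against 254 in Col-0 and a log2 ratio of -3.27 (-3.79 to -2.79). *CYP707A4* (AT3G19270), of the family of enzymes that break down ABA, had 2 reads in *suvr5-1*, against 14 in Col-0, a ratio of 0.0915 (0.0101 to 0.398). *MAPKKK18* (AT1G05100), an ABA-induced protein kinase, had 7 reads in *suvr5-1*, against 22 in Col-0, a log2 ratio of -2.30 (-3.77 to -1.02), and its triple mutant level of 7.97 RPKM was above the 5.55 RPKM of Col-0. *DI21* (AT4G15910), a drought-induced gene in none of the lists, had 9.44 RPKM in *suvr5-1*, 18.2 RPKM in the triple mutant, 58.5 RPKM in *ldl1 ldl2* and 139 RPKM in Col-0, a log2 ratio of -3.88 (-4.38 to -3.40). In contrast, the member with the most reads, the carotenoid cleavage dioxygenase gene *NCED4* (AT4G19170), had 2619 reads in *suvr5-1*, against 2899 in Col-0 and a log2 ratio of -0.79 that did not pass 2-fold.

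Genes for aliphatic glucosinolates were lower almost throughout. Glucosinolates are sulfur-rich defence compounds of the cabbage family, and the aliphatic ones are built from methionine by elongation of its side chain, formation of the core structure and later modification. Of 15 genes of this pathway tested, 5 were lowered past 4-fold and 10 past 2-fold, none was raised, and 13 of the 14 with at least 20 reads had a log2 ratio below 0. Their median was -1.72. Of the 12 genes listed for indole glucosinolates, which start from tryptophan and share a few enzymes with the aliphatic ones, none passed 2-fold in either direction, and the median over 9 of them was -0.24. The difference between both pathways was not tested. With nuclear reads as library size the indole median was 0.02 and the aliphatic median was -1.45, with 3 genes lowered past 4-fold and 9 past 2-fold, and the beta-binomial test kept *IMS2* and *AOP2* alone.

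The enzymes of side chain elongation were among those that moved most. *BCAT4* (AT3G19710), the aminotransferase that opens the pathway, had 120 RPKM in *suvr5-1*, 354 RPKM in the triple mutant, 235 RPKM in *ldl1 ldl2* and 545 RPKM in Col-0, a log2 ratio of -2.18 (-2.30 to -2.06), and it shares exon bases with the neighbouring *IKU2*. *MAM1* (AT5G23010), which adds the carbon unit, had 531 reads in *suvr5-1*, against 1459 in Col-0, a log2 ratio of -2.10 (-2.25 to -1.96). Next to it on chromosome 5, *IMS2* (AT5G23020), which makes the longest chains, had 3.08 RPKM in *suvr5-1*, 4.93 RPKM in the triple mutant, no read in *ldl1 ldl2* and 27.9 RPKM in Col-0, a log2 ratio of -3.18 (-3.84 to -2.57). *BAT5* (AT4G12030), the transporter that moves the keto acids of this pathway across the plastid envelope, had 59 reads in *suvr5-1*, against 128 in Col-0 (-1.76, -2.23 to -1.30). The isopropylmalate dehydrogenase gene *IMD3* (AT1G31180), with 178 reads in *suvr5-1*, against 159 in Col-0, had a log2 ratio of -0.48 (-0.80 to -0.16) and did not pass 2-fold.

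In the formation of the core, *CYP79F1* (AT1G16410), which converts the elongated amino acids to aldoximes, had 34.3 RPKM in *suvr5-1*, 107 RPKM in the triple mutant, 48.1 RPKM in *ldl1 ldl2* and 203 RPKM in Col-0. With 518 reads in *suvr5-1*, against 1961 in Col-0 its log2 ratio was -2.56 (-2.71 to -2.42). Its neighbour and close homolog *CYP79F2* (AT1G16400) had only 30 reads in *suvr5-1*, against 36 in Col-0, a log2 ratio of -0.91 (-1.66 to -0.17) that was not past 2-fold, and reads of near-identical sequence could be shared between both genes. *CYP83A1* (AT4G13770), the next enzyme, had 1483 reads in *suvr5-1*, against 2815 in Col-0 (-1.57, -1.66 to -1.48), whereas its counterpart in the indole pathway, *CYP83B1* (AT4G31500), had 2256 reads in *suvr5-1*, against 1493 in Col-0 (-0.05, -0.14 to 0.05). The glutathione transferase *GSTF11* (AT3G03190, -1.77) and the sulfotransferase *SOT17* (AT1G18590, -1.67), which completes the core, passed 2-fold. *UGT74B1* (AT1G24100) and *GGP1* (AT4G30530), which serve both pathways, had log2 ratios of -0.85 and -0.81. *AOP2* (AT4G03060), a gene of side chain modification that the annotation gives as a transcribed pseudogene, had 37 reads in *suvr5-1*, against 185 in Col-0 (-2.97, -3.52 to -2.45), while the adjoining *AOP1* (AT4G03070) had 16 reads in *suvr5-1*, against 5 in Col-0 (1.03, -0.48 to 2.84).

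Of the regulators of the pathway, *MYB29* (AT5G07690) had 33 reads in *suvr5-1*, against 47 in Col-0, a log2 ratio of -1.15 (-1.84 to -0.48) that passed 2-fold with an adjusted P of 0.00242 by Fisher's exact test, and *MYB76* (AT5G07700) had 6 reads in *suvr5-1*, against 10 in Col-0 (-1.38, -3.12 to 0.22), so that no difference could be detected with so few reads. *HMT3* (AT3G22740), which makes methionine from homocysteine and was in none of the lists, had 2.27 RPKM in *suvr5-1*, 27.6 RPKM in the triple mutant, 20.01 RPKM in *ldl1 ldl2* and 40.5 RPKM in Col-0, a log2 ratio of -4.16 (-4.96 to -3.44). *TGG1* (AT5G26000) and *TGG2* (AT5G25980), the myrosinases that split glucosinolates when tissue is damaged, went the other way. *TGG1* had 5471 reads in *suvr5-1*, against 824 in Col-0 (2.09), and *TGG2* had 3030 in *suvr5-1*, against 180 in Col-0 (3.43). *TGG1* and *TGG2* were picked out after their values were seen.

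**Figure D2:**
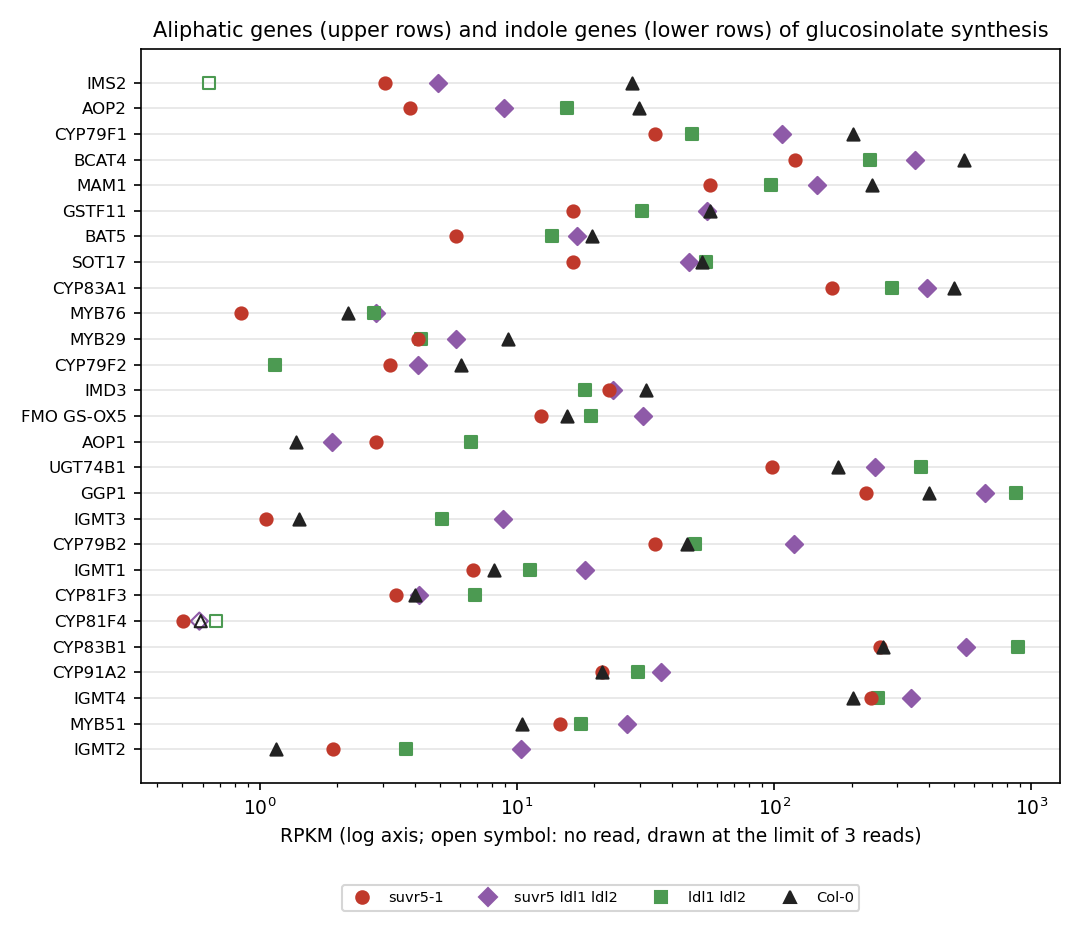
Level in RPKM (horizontal, log axis) of 27 genes of aliphatic (upper rows) and indole (lower rows) glucosinolate synthesis in *suvr5-1* (red circles), the triple mutant (purple diamonds), *ldl1 ldl2* (green squares) and Col-0 (black triangles), 1 library each, ordered by the ratio of *suvr5-1* to Col-0 within each pathway. In the upper rows *suvr5-1* lies left of Col-0 in every gene but *AOP1*, while no gene of the indole rows passed 2-fold between them.

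Senescence genes, by name or annotation, had 3 lowered and 1 raised member among 31 tested, and 10 lowered and 2 raised past 2-fold, with a median log2 ratio of -0.64 over 30 of them. *SAG29* (AT5G13170), a sugar transporter gene of ageing leaves, had 1 read in *suvr5-1*, against 34 in Col-0, a ratio of 0.0188 (0.000463 to 0.112). *SRG1* (AT1G17020) had 1.84 RPKM in *suvr5-1*, 6.13 RPKM in the triple mutant, 1.77 RPKM in *ldl1 ldl2* and 17.3 RPKM in Col-0 (-3.23, -4.20 to -2.37). *SEN1* (AT4G35770), a marker of leaves kept in the dark, was abundant, with 272 RPKM in *suvr5-1*, 104 RPKM in the triple mutant, 308 RPKM in *ldl1 ldl2* and 617 RPKM in Col-0 (-1.18, -1.27 to -1.09). Past 2-fold 2 members were raised, *SAG21* (AT4G02380, 1.01) and *WRKY53* (AT4G23810), a regulator of leaf senescence, with 159 reads in *suvr5-1*, against 22 in Col-0 (2.21, 1.56 to 2.92). Both share exon bases with another gene. With nuclear reads as library size 6 members were lowered and 4 raised past 2-fold.

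NAC factors, a plant family of transcription factors that includes several regulators of senescence and stress, had 8 members lowered past 2-fold and 1 raised among 44 tested. *NAC047* (AT3G04070) had 12 reads in *suvr5-1*, against 49 in Col-0 (-2.67, -3.72 to -1.74), its chromosomal neighbour *NAC046* (AT3G04060) had 12 in *suvr5-1*, against 26 in Col-0 (-1.76, -2.88 to -0.72), and *ANAC087* (AT5G18270) had 2 in *suvr5-1*, against 16 in Col-0, a ratio of 0.0800 (0.00893 to 0.340). *RD26* (AT4G27410), the dehydration-induced NAC factor, had 281 reads in *suvr5-1*, against 288 in Col-0, a log2 ratio of -0.68 (-0.92 to -0.44) that did not pass 2-fold. None of the NAC genes was called by the beta-binomial test.

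Of 50 amino acid and peptide transport genes, 8 were lowered past 2-fold and none was raised. Of these, 4 were exporters of the UMAMIT family. Among them *UMAMIT29* (AT4G01430) had no read in *suvr5-1*, against 21 in Col-0, which is 10.9-fold lower with 3 reads in place of none. *UMAMIT33* (AT4G28040) had 51 reads in *suvr5-1*, against 160 in Col-0 (-2.29, -2.78 to -1.83). *UMAMIT33* shares exon bases with another gene. AT4G33150, the lysine-degrading enzyme, had 5.81 RPKM in *suvr5-1*, 8.14 RPKM in the triple mutant, 17.3 RPKM in *ldl1 ldl2* and 40.3 RPKM in Col-0, with a log2 ratio of -2.79. *PYD4* (AT3G08860), of pyrimidine breakdown, had 6 reads in *suvr5-1*, against 87 in Col-0 (-4.50), yet 16.7 RPKM in the triple mutant, above the 12.3 RPKM of Col-0. AT4G33150 and *PYD4* were picked out after their values were seen. Among 81 genes of sugar, starch and the starvation response, 14 were lowered and 3 raised past 2-fold, but the median log2 ratio was -0.02, and with nuclear reads as library size 5 were lowered and 9 raised, so no direction held for that list. Likewise, the median of the amino acid list was -0.21 and turned to 0.05 with nuclear reads.

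Among genes of mineral nutrition, the lowered ones included some of iron transport and storage. *NAS3* (AT1G09240), which makes the metal chelator nicotianamine, had 5.71 RPKM in *suvr5-1*, 10.0 RPKM in the triple mutant, 12.1 RPKM in *ldl1 ldl2* and 53.8 RPKM in Col-0 (-3.23, -3.78 to -2.73). *FER1* (AT5G01600), the iron store ferritin, had 94.5 RPKM in *suvr5-1*, 92.4 RPKM in the triple mutant, 99.8 RPKM in *ldl1 ldl2* and 259 RPKM in Col-0 (-1.45, -1.60 to -1.31), so that all mutant libraries lay close together below Col-0. *YSL1* (AT4G24120), a carrier of iron bound to nicotianamine, had 252 reads in *suvr5-1*, against 364 in Col-0 (-1.17), and the ferric reductase *FRO4* (AT5G23980) had 63 in *suvr5-1*, against 119 in Col-0 (-1.56). Against these, the iron sensor *BTS* (AT3G18290) had 512 reads in *suvr5-1*, against 148 in Col-0 (1.15, 0.88 to 1.42). The list of 29 iron genes had 5 members lowered and 2 raised past 2-fold, and a median of 0.25. Past 4-fold 2 were lowered and 1 was raised, and the highest log2 ratio of the list was 3.68. The boric acid channel *NIP5;1* (AT4G10380) had 1.30 RPKM in *suvr5-1*, 0.616 RPKM in the triple mutant, 1.25 RPKM in *ldl1 ldl2* and 17.3 RPKM in Col-0, a log2 ratio of -3.74 (-4.69 to -2.90). *ALMT1* (AT1G08430), a malate channel, had 1 read in *suvr5-1*, against 36 in Col-0, a ratio of 0.0178 (0.000438 to 0.106), and was picked out after its values were seen.

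Several of the lowest ratios belonged to members of lists in which more genes were raised than lowered. Of 66 GDSL and other secreted lipases, 7 were raised and 3 lowered, and 13 were raised and 4 lowered past 2-fold. Pectin enzymes had 14 raised and 4 lowered members, and the list of extensins, proline-rich, PELPK and arabinogalactan proteins had 21 raised and 5 lowered. *MPL1* (AT5G14180), a lipase induced by aphids, had 0.524 RPKM in *suvr5-1*, 0.485 RPKM in the triple mutant, 1.68 RPKM in *ldl1 ldl2* and 27.7 RPKM in Col-0, with 5 reads in *suvr5-1*, against 169 in Col-0 (-5.72, -7.36 to -4.47). *PELPK1* (AT5G09530), a repetitive proline-rich wall protein, had 10 reads in *suvr5-1*, against 154 in Col-0 (-4.59, -5.68 to -3.67), and the adjoining *PELPK2* (AT5G09520) had none in *suvr5-1*, against 12 in Col-0. *CHAT* (AT3G03480), which makes the leaf volatile hexenyl acetate and was in none of the lists, had 1.90 RPKM in *suvr5-1*, 10.5 RPKM in the triple mutant, 5.58 RPKM in *ldl1 ldl2* and 28.5 RPKM in Col-0 (-3.90, -4.81 to -3.11). The pectin lyase-like gene AT1G05310 had 30 reads in *suvr5-1*, against 220 in Col-0 (-3.52), and AT2G05540, a glycine-rich protein and the lowered coding gene with the most reads, had 1318 in *suvr5-1*, against 5908 in Col-0 (-2.81, -2.89 to -2.72).

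Lipid transfer and hybrid proline-rich proteins had 4 lowered members and 1 raised among 38. *AZI1* (AT4G12470), which takes part in systemic immunity, had 42.8 RPKM in *suvr5-1*, 13.5 RPKM in the triple mutant, 81.8 RPKM in *ldl1 ldl2* and 225 RPKM in Col-0 (-2.39, -2.65 to -2.14). AT4G22470, annotated with the same domain, had 7 reads in *suvr5-1*, against 105 in Col-0 (-4.55) but shares exon bases with another gene, and its level in the triple mutant and *ldl1 ldl2*, 20.3 and 28.8 RPKM, was near the 27.0 RPKM of Col-0. Of 23 class III peroxidase genes tested 4 were lowered and 1 raised. The median log2 ratio over the 9 peroxidases with enough reads was -1.84, but 0.19 without genes that share exon bases, while *PRXR1* (AT4G21960), by far the most abundant, had 22956 reads in *suvr5-1*, against 11886 in Col-0 and a log2 ratio of 0.31. The remaining genes of the 15 lowest were the ankyrin repeat gene AT5G15500 with 58 reads in *suvr5-1*, against 438 in Col-0 (-3.56), the uncharacterised AT3G14060 with 32 in *suvr5-1*, against 236 in Col-0 (-3.53) and the serine carboxypeptidase-like *SCPL7* (AT3G10450) with 26 in *suvr5-1*, against 182 in Col-0 (-3.45), which shares exon bases with another gene.

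Among noncoding RNAs, the 18S rRNA gene AT2G01010 had 189 RPKM in *suvr5-1*, 329 RPKM in the triple mutant, 357 RPKM in *ldl1 ldl2* and 3849 RPKM in Col-0, with 1581 reads in *suvr5-1*, against 20568 in Col-0 (-4.34, -4.42 to -4.27). The libraries were made from poly(A) RNA, and Col-0 stood apart from all 3 mutants in this gene. The spliceosomal RNA gene *U6.6* (AT4G09135) had 146 reads in *suvr5-1*, against 587 in Col-0 (-2.65), again with Col-0 highest. Leaving the rRNA genes out of the library size gave 225 lowered and 306 raised genes, of which 221 and 306 were among those called with them. For this gene and the other lowered genes, the Col-0 library and the Col-0 genotype cannot be told apart.

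Among 61 genes of histone lysine 9 methylation, DNA methylation and histone demethylation, 2 were raised and 1 was lowered past 4-fold. Past 2-fold 6 were lowered and 3 raised, beside 5.15% lowered and 5.92% raised of all genes tested. The median log2 ratio of the 53 members with at least 20 reads was -0.06, with a range from -2.52 to 2.98. *RDR2* (AT4G11130), the RNA polymerase of the small RNA pathway that directs DNA methylation, had 9 reads in *suvr5-1*, against 33 in Col-0 (-2.52, -3.77 to -1.42). *MOM* (AT1G08060) is a silencing factor that acts without a change in DNA methylation. It had 68 reads in *suvr5-1*, against 179 in Col-0 (-2.04, -2.46 to -1.63). *MOM* was in none of the lists and was picked out after its values were seen. These lowered genes do not stand for the list, whose 2 raised members are not named here and whose log2 ratios reached 2.98.

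**Figure D3:**
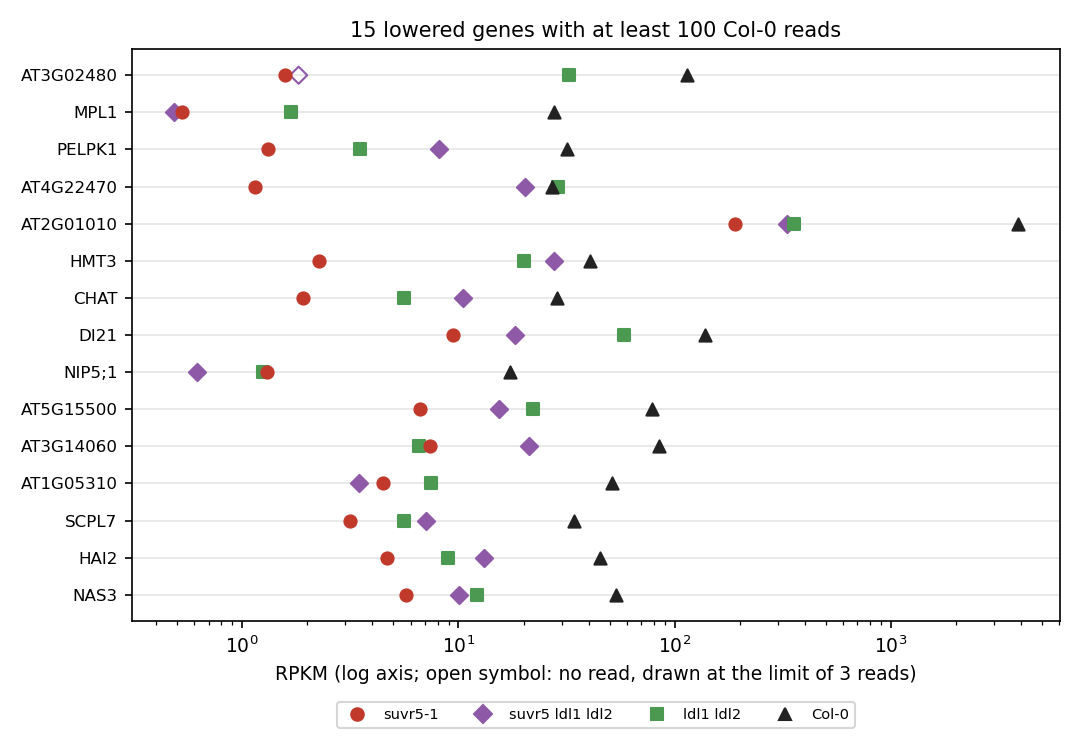
Level in RPKM (horizontal, log axis) in *suvr5-1*, the triple mutant, *ldl1 ldl2* and Col-0, 1 library each, of the 15 genes with the lowest ratio of *suvr5-1* to Col-0 among lowered genes with at least 100 Col-0 reads. Col-0 is the highest library in every row but AT4G22470, where *ldl1 ldl2* lies just above it, and *suvr5-1* is the lowest in most rows. The genes were chosen by this ratio, so that *suvr5-1* lies below Col-0 follows from the choice.

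The raised genes had a different makeup. Of 40 *SAUR* genes, a family of short-lived transcripts induced by auxin, 8 were raised and none lowered, and 17 were raised past 2-fold. All 27 with at least 20 reads had a log2 ratio above 0, with a median of 1.45. With nuclear reads as library size 14 were raised, and 25 past 2-fold. *SAUR29* (AT3G03820) had 31.4 RPKM in *suvr5-1*, 1.32 RPKM in the triple mutant, 2.03 RPKM in *ldl1 ldl2* and 3.12 RPKM in Col-0, a log2 ratio of 3.33 (2.24 to 4.68). *SAUR22* (AT5G18050) likewise had 22.9 RPKM in *suvr5-1*, against 1.79 RPKM in the triple mutant, 1.55 RPKM in *ldl1 ldl2* and 2.72 RPKM in Col-0. In both genes *suvr5-1* was the library that stood apart. The most abundant member, AT4G38860, had 658 reads in *suvr5-1*, against 153 in Col-0 (1.46, 1.21 to 1.72). None of the *SAUR* genes was called by the beta-binomial test, and members with near-identical sequence could share reads. *IAA19* (AT3G15540), another auxin-induced gene, had 153 reads in *suvr5-1*, against 11 in Col-0 (3.15).

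By number, the extensin and pectin lists of wall genes held the most raised genes, but both are long. Of 147 genes in the list of extensins, proline-rich and arabinogalactan proteins, 21 were raised and 5 lowered, with a median of 0.35. Of 90 pectin enzymes and inhibitors, 14 were raised and 4 lowered, with a median of 0.53. Of all genes tested 2.59% were raised. Larger shares than in these lists were raised in some shorter lists, such as gibberellin genes, 6 of 20, and *SAUR* genes, 8 of 40. The same held for the wall lists of expansins, 3 of 9, and xyloglucan endotransglucosylases, 3 of 16. Past 4-fold 1 expansin and 2 xyloglucan endotransglucosylases were lowered. The extensin list also holds glycine-rich proteins, among them its member with the most reads, *GRP-3* (AT2G05520), and the RNA-binding protein gene *CCR1* (AT4G39260). With nuclear reads as library size 18 pectin genes were raised and 1 lowered, and with the beta-binomial test 4 were raised and 1 lowered. *XTH8* (AT1G11545), a xyloglucan endotransglucosylase, had 131 reads in *suvr5-1*, against none in Col-0. With 3 reads in place of none it was 28.0-fold higher, and its exact interval starts at 22.4-fold. *XTH4* (AT2G06850) had 3842 reads in *suvr5-1*, against 512 in Col-0 (2.26, 2.13 to 2.40). The expansin *EXPA11* (AT1G20190) had 531 reads in *suvr5-1*, against 43 in Col-0 (2.98), whereas *EXPA10* (AT1G26770) was lowered with 26 in *suvr5-1*, against 84 in Col-0 (-2.34). *FLA2* (AT4G12730), a fasciclin-like arabinogalactan protein, had 881 reads in *suvr5-1*, against 46 in Col-0 (3.62), and the tonoplast aquaporin gene *DELTA-TIP* (AT3G16240), which shares exon bases with another gene, had 8820 in *suvr5-1*, against 686 in Col-0 (3.04). Of 20 gibberellin genes 6 were raised, among them *GASA4* (AT5G15230) with 106 RPKM in *suvr5-1*, 52.7 RPKM in the triple mutant, 37.6 RPKM in *ldl1 ldl2* and 6.45 RPKM in Col-0 (4.04, 3.38 to 4.78). Part of the wall genes with few Col-0 reads are known from pollen, such as the polygalacturonase gene *PGA4* (AT1G02790), with 89 reads in *suvr5-1*, against 1 in Col-0, a ratio of 57.0 (9.97 to 2276). The markers of pollen and tapetum summed to 42.2 RPKM in *suvr5-1*, 29.3 RPKM in the triple mutant, 26.7 RPKM in *ldl1 ldl2* and 17.4 RPKM in Col-0. Of the 23 markers, 8 had no read in *suvr5-1* and 14 had none in Col-0, and 3 of the 17 tested were raised, *GRP17*, *AGP6* and *AGP11*. Their part in the wall genes was not tested.

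The remaining genes of the 10 highest ratios had other roles. *GER3* (AT5G20630), a germin-like protein, had 311 RPKM in *suvr5-1*, 168 RPKM in the triple mutant, 37.2 RPKM in *ldl1 ldl2* and 11.4 RPKM in Col-0 (4.77, 4.28 to 5.30). The glutaredoxin gene AT1G06830 had 119 reads in *suvr5-1*, against 2 in Col-0, a ratio of 38.1 (10.3 to 318), and the methionine sulfoxide reductase *MSRB6* (AT4G04840) had 114 in *suvr5-1*, against 2 in Col-0, a ratio of 36.5 (9.87 to 305). The lipase-like AT4G28780 had 164 reads in *suvr5-1*, against 3 in Col-0, a ratio of 35.0 (11.8 to 171). The glycine-rich protein gene AT1G04800 (4.84) and the phosphatase-like AT1G04040 (4.17) share exon bases with their neighbours, as does the pectin lyase-like AT1G10640, with 103 reads in *suvr5-1*, against none in Col-0. AT5G07410, of that family too, had a ratio of 26.3 (8.78 to 129).

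**Figure D4:**
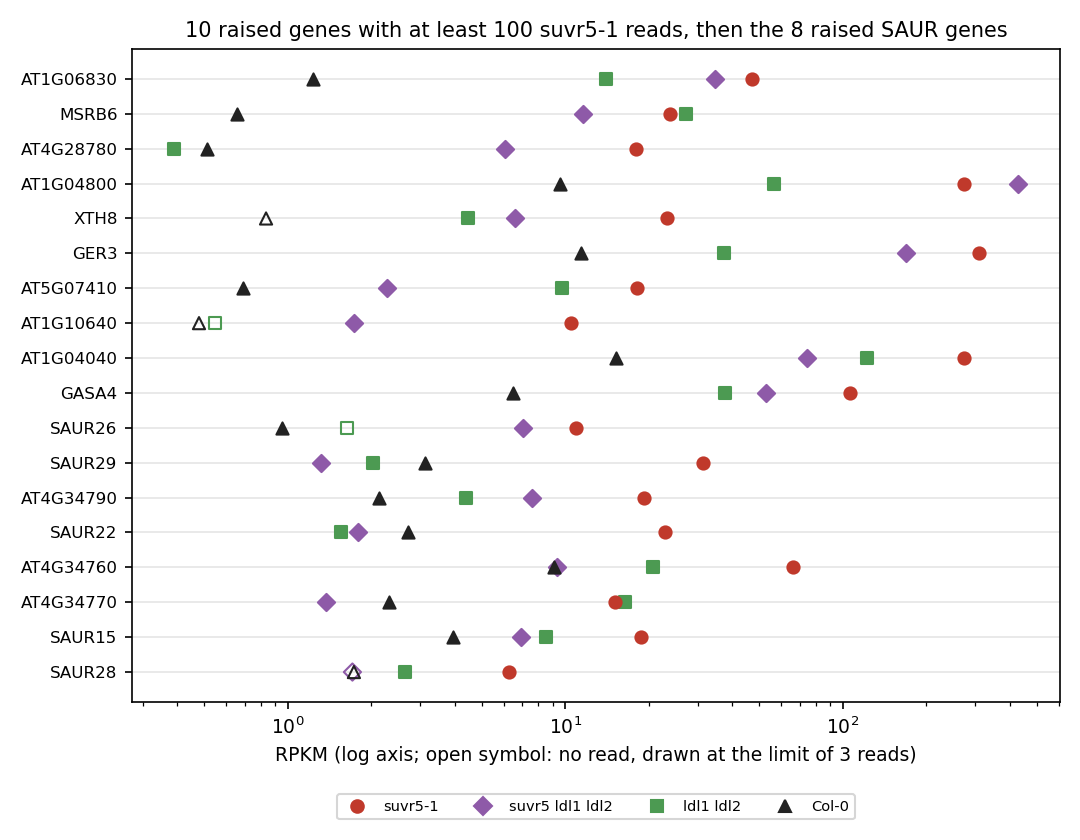
Level in RPKM (horizontal, log axis) in *suvr5-1*, the triple mutant, *ldl1 ldl2* and Col-0, 1 library each, of the 10 genes with the highest ratio among raised genes with at least 100 *suvr5-1* reads (upper rows) and of the 8 raised *SAUR* genes (lower rows). Open symbols mark libraries without a read, drawn at the level of 3 reads. In every row *suvr5-1* lies right of Col-0, which follows from the choice of raised genes.

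The list of salicylic acid defence genes and pathogenesis-related (PR) genes was raised in part. Of 33 tested 6 were raised and 1 was lowered. The lowered member, the basic chitinase gene *HCHIB* (AT3G12500), had 32 reads in *suvr5-1*, against 138 in Col-0 (-2.75). *HCHIB* shares exon bases with another gene. *DMR6* (AT5G24530), an enzyme that removes salicylic acid, had 648 reads in *suvr5-1*, against 45 in Col-0, and was highest in the triple mutant with 377 RPKM (3.20, 2.77 to 3.67). *PBS3* (AT5G13320), which takes part in salicylic acid synthesis, had 172 reads in *suvr5-1*, against 26 in Col-0 (2.08, 1.48 to 2.74), and *GRX480* (AT1G28480), a glutaredoxin gene induced by salicylic acid, had 148 in *suvr5-1*, against 12 in Col-0 (2.98). Cysteine-rich receptor-like kinases had 6 raised and no lowered member among 37. Of these, 3 are neighbours on chromosome 4, *CRK5* with 98 reads in *suvr5-1*, against 4 in Col-0 (3.97), *CRK6* with 188 in *suvr5-1*, against 8 in Col-0 (3.91) and *CRK7* with 85 in *suvr5-1*, against 2 in Col-0, a ratio of 27.2 (7.31 to 228). Of 30 WRKY factors 4 were raised and 1 was lowered past 4-fold, but 4 were raised and 4 lowered past 2-fold, and 15 of the 21 with at least 20 reads had a log2 ratio below 0, with a median of -0.36. The called members included *WRKY38* (AT5G22570) at 55 reads in *suvr5-1*, against none in Col-0, and *WRKY28* (AT4G18170) at 19 in *suvr5-1*, against 59 in Col-0 (-2.28). *PCC1* (AT3G22231), a pathogen-responsive gene in none of the lists that was picked out after its values were seen, had 4382 reads in *suvr5-1*, against 198 in Col-0 (3.82, 3.62 to 4.04).

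None of 48 photosystem and light-harvesting genes passed 2-fold, with a median log2 ratio of 0.02, and *CAB1* (AT1G29930), which shares exon bases with another gene, had 267525 reads in *suvr5-1*, against 164901 in Col-0 (0.05, 0.05 to 0.06). Of 162 ribosomal protein genes 2 were raised and 2 lowered past 2-fold, with a median of -0.06. Among the genes that the study followed by RT-qPCR, *PBS3* passed 4-fold, with the values given above. The study measured *PBS3* and the *SAUR* gene AT3G12830 in seedlings with and without the auxin NAA, and not in these leaves. AT4G36510 and AT5G54490, which it also followed, were not among the genes tested here. The monooxygenase gene AT1G12160 had 63 reads in *suvr5-1*, against 16 in Col-0 (1.33, 0.52 to 2.23), AT3G12830 had 84 in *suvr5-1*, against 28 in Col-0 (0.94, 0.31 to 1.61), and *AGO3* (AT1G31290) had 5 in *suvr5-1*, against 8 in Col-0, too few to detect a difference. AT3G22121, which shares exon bases with another gene, had 12587 in *suvr5-1*, against 3380 in Col-0 (1.25). The coding gene *CWLP* (AT3G22120) at the same place had 12588 and 3380, so these reads cannot be assigned to AT3G22121. The study gave the RT-qPCR levels of its auxin genes relative to actin and lists primers for *ACT7* (AT5G09810). This actin gene had 2327 reads in *suvr5-1*, against 1140 in Col-0 (0.39, 0.28 to 0.49).

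**Figure D5:**
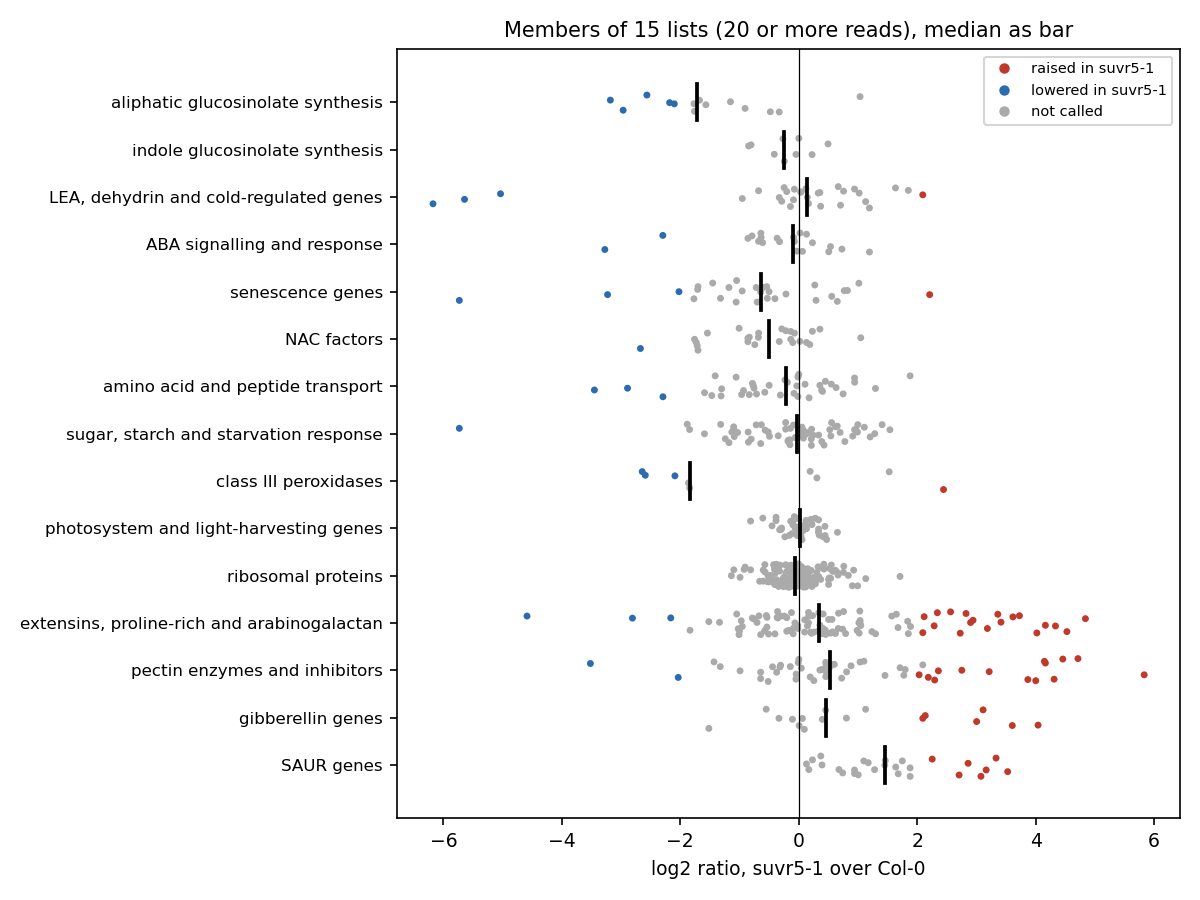
Log2 ratio of *suvr5-1* over Col-0 (horizontal) of the members of 15 gene lists with at least 20 reads in both libraries together, with the median of each list as a black bar and called genes in red (raised) or blue (lowered). Of the 14 aliphatic glucosinolate genes 13 lie left of 0, with a median of -1.72. The photosystem and ribosomal genes have medians close to 0, and the ribosomal ones range from -1.14 to 1.71. The *SAUR* genes lie right of 0 around 1.45.

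Over all called genes, promoters with ACGTG made up 41.0% of the lowered genes, 27.9% of the raised genes and 27.1% of all tested genes. CACGTG was held by 12.6% of the lowered, 6.17% of the raised and 7.93% of all tested genes, and CCGAC by 18.0% of the lowered, 9.42% of the raised and 16.3% of all tested genes. Of the 40 *SAUR* promoters 4 held ACGTG and none held CACGTG. The W-box core TTGAC was held by 50.5% of the lowered, 55.5% of the raised and 50.3% of all tested genes, on either strand. These shares are descriptions over genes of 1 library each and were not tested.

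Few called genes lay next to each other. Neighbours with the same direction numbered 11 pairs among the lowered genes, of which 4 shared no exon bases, with *MAM1* and *IMS2* and the *PELPK* genes among them, and 21 pairs among the raised genes, of which 4 shared none. Exons shared with another gene concerned 64 lowered and 76 raised genes, for which the reads cannot be assigned to 1 gene. Calls in both directions were more frequent among genes of low level, since 3.00% of the lowest of 5 equal classes of genes by level were lowered and 7.40% raised, against 0.723% lowered and 1.95% raised in the highest class, among genes with at least 20 reads. The median log2 ratio by level stayed between -0.01 and 0.11. By exon length it was 0.11 in the shortest class and -0.12 in the longest. In the shortest class 5.45% were raised and 2.17% lowered, against 1.00% raised and 0.834% lowered in the longest. By GC content of exons, 5.39% were raised and 2.45% lowered in the lowest class, against 2.28% raised and 1.89% lowered in the highest.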

How the data were processed

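mRNA-Seq reads of leaves were mapped by the authors, and the deposited files hold 1 line per mapped read with chromosome, strand and leftmost position, counted from 0, and no count, signal or score per gene. The submitters' processing notes name Bowtie. Its version, the assembly and the treatment of reads with several matches are not given in the sources used here. Reads were placed past the ends of TAIR10.1 chromosomes, so another assembly was used, and no position was converted. The displacement between reads and annotated TAIR10.1 exons was measured in 478 windows of 250 kb. Windows were kept if they and their neighbours were displaced by no more than 30 bp and the match reached a z-score of 5, which left 206 in 6 stretches (43.1% of the assembly, displacement -27 to 15 bp). A read was counted for every gene whose merged exons held its position, on either strand. RPKM used all reads on genes as total. Fisher's exact test, Benjamini-Hochberg adjustment and exact binomial intervals were computed in Python 3.11.15 with scipy 1.17.1, and the code was tested on simulated data.

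With 1 library per genotype no replicate error can be given. Genes without a read in 1 library count as past any fold, and their printed ratio uses 3 reads. Named genes are the 15 lowest ratios with at least 100 Col-0 reads, the 10 highest with at least 100 *suvr5-1* reads, and from each of 53 lists and 10 marker lists up to 3 called genes of each direction with the largest fold and at least 50 reads in the higher library, the member with the most reads, and the genes the study followed by RT-qPCR. Of these, those that bear on the groups described are named. Other genes named belong to the lists described or were picked out after their values were seen, as stated beside them. Members and lists were chosen with earlier results of these data known, and 71 genes whose names matched a list by accident were taken out after values were seen. Alternatives were another library size, positions counted once, at least 20 reads, no shared exons, at most 10 bp of displacement, whole genes, folds of 2 and 8 and a beta-binomial test with a dispersion of 0.1.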

Additional observations from a re-analysis of the deposited data

How the results depend on the processing

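The 222 lowered and 308 raised genes became 45 and 34 with the beta-binomial test at a dispersion of 0.1, and 81 and 134 with each position and strand counted once. Genes with at least 20 reads in both libraries together held 139 lowered and 287 raised genes. A 2-fold threshold gave 613 and 704, and an 8-fold threshold 118 and 149. All nuclear reads as library size gave 154 lowered and 446 raised genes, and the lowered ones were all among the 222. Scaling by the median ratio gave 212 and 324, leaving out genes with shared exons 158 and 241, a displacement of at most 10 bp 175 and 257, and whole genes 229 and 310. No named gene that was called turned its direction in these alternatives. Uncalled genes with small negative log2 ratios changed sign with nuclear reads, such as CYP83B1 at -0.05 with reads on genes and 0.22 with nuclear reads. The beta-binomial test ended the call of 46 named genes, counting positions once that of 23, nuclear reads that of 3, and median scaling, whole genes and the library size without rRNA that of 1 each. Counting positions once limits an abundant gene to the number of its positions, so it compresses ratios of genes with many reads. Lists of under 10 members with enough reads, such as the peroxidases, have medians that rest on few genes. Depth limits every gene with fewer than 10 reads in the lower library, which were 146 of the lowered and 219 of the raised genes. No paired analysis was possible because each genotype has 1 library.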
